A study of Mus musculus with 23 samples.

Results

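Wnt proteins are secreted ligands that carry signals between neighboring cells. A ligand binds a Frizzled (*Fzd*) receptor together with the co-receptor Lrp5 or Lrp6, which keeps β-catenin (*Ctnnb1*) from being degraded, and β-catenin then enters the nucleus and works with TCF/LEF factors to switch on target genes such as *Axin2*. Secreted inhibitors bind the ligands or the co-receptors, while R-spondins and their Lgr receptors hold back Rnf43 and Znrf3, the ligases that remove Frizzled receptors from the cell surface. Some ligands, such as Wnt5a and Wnt11, are mainly known for signaling without β-catenin. In tumors, both the cancer cells and the fibroblasts around them can make and receive these signals.

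A set of 52 Wnt pathway genes was chosen by name, out of 24940 gene symbols, to follow these steps across syngeneic mouse tumors. It held 18 ligands, 12 receptors and co-receptors, 10 secreted inhibitors, 7 genes of the R-spondin axis and 5 genes of β-catenin, its nuclear partners and target genes. All 52 were found in both tables.

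The tumors were grown from B16-F10 melanoma (B16), EO771.LMB breast (EO771), LL/2 lung (LL2), MC38 colon and Pan02 pancreatic cancer cells, all lines that grow in C57BL/6 mice, after 500000 cells had been injected into the flank of adult females. Every tumor was an untreated, engrafted tumor, and RNA was taken from a fragment of it at the endpoint. There were 3 tumors of each of the 5 models and 2 libraries of cancer-associated fibroblasts (CAFs) from each of 4 models, EO771, LL2, MC38 and Pan02. The CAFs were sorted as FAP+ cells, where FAP is a surface protease of activated fibroblasts, from cells left after removal of CD45+ leukocytes. Each model is 1 cell line, so a difference between models is a difference between 5 lines and their hosts. The titles of the Pan02 tumors read Pan01, while their cell line label reads Pan02. The labels do not say whether the 3 tumors of a model, or its 2 CAF libraries, came from separate mice, so the p-values measure the spread between these samples. Within each set the models share a common estimate of that spread for each gene. Tumor values are CPM, counts scaled to the library size after TMM normalization, and CAF values are RPKM, reads per kilobase of transcript scaled to the depth of the library. The 2 tables were normalized separately, so their levels are set side by side without a test.

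Total counts ran from 10035173 to 21946486 per tumor, at which 3 counts correspond to between 0.137 and 0.299 CPM, and the reads recovered from the RPKM steps numbered about 9270000 to 22840000 per CAF library. Melanocyte genes summed to at least 11356 RPKM in B16 tumors and to at most 22.7 RPKM elsewhere. The sum of 9 fibroblast genes was 78.1 to 322 RPKM in B16 tumors, 585 to 2672 RPKM in EO771, LL2 and MC38 tumors and 8166 to 9086 RPKM in Pan02 tumors. In the CAFs this sum was 8980 to 9733 RPKM in EO771, 7011 to 8254 RPKM in LL2, 1530 and 6551 RPKM in MC38, and 2386 and 3880 RPKM in Pan02. The libraries labelled Pan02 CAF thus had lower fibroblast sums than the Pan02 tumors, and their *Fap* values of 3.28 and 1.89 RPKM were the lowest of the CAFs, against 4.09 RPKM on average in Pan02 tumors. Pan02 also had the lowest CAF mean of *Col1a1*, *Col1a2*, *Col3a1* and *Thy1*, but not of *Pdgfra*, *Pdgfrb*, *Dcn* and *Lum*. *Dcn*, for example, averaged 447 RPKM in Pan02 CAFs, 577 RPKM in LL2, 291 RPKM in EO771 and 210 RPKM in MC38. Epithelial genes (*Epcam*, *Krt8*, *Krt18*, *Krt19*, *Krt7*, *Cdh1* and *Cldn4*) were also present in the sorted cells, with sums of 494 to 501 RPKM in EO771 CAFs, 207 to 212 RPKM in LL2, 2.16 to 4.85 RPKM in MC38 and 886 to 1172 RPKM in Pan02. In EO771 CAFs *Krt8* alone gave 493 RPKM of this sum on average, and no other of these genes exceeded 3.18 RPKM. In tumors of the same models these sums were 672 to 706, 303 to 484, 4.51 to 34.3 and 1467 to 2233 RPKM, and none of the 7 genes was at 0 in the CAFs of any model. Leukocyte sums in the CAFs were between 2.89 and 14.7 RPKM, except in EO771 (84.5 and 103 RPKM), and T cell sums reached at most 1.85 RPKM.

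The first question was which Wnt genes differ among the 5 tumor models. Of the 52 genes, 42 had enough counts to be tested and 41 of them, 97.6%, differed at an adjusted p below 0.05 (edgeR quasi-likelihood F test, Benjamini-Hochberg adjustment), where 91.1% of all 15722 genes tested did. A gene that would not pass the filter without the model where it is high is selected in part for its difference. This held for *Wnt7a*, *Wnt16*, *Fzd10* and *Rspo1*, so these counts describe the genes and do not set them apart. *Lrp5* was the exception (adjusted p = 0.31), with 75.6 to 383 CPM over the 15 tumors, both extremes in Pan02, and without Pan02 tumor 1 its log2 fold change in Pan02 was −0.92 (adjusted p = 0.00066). Not tested were *Wnt1*, *Wnt3*, *Wnt3a*, *Wnt8b*, *Wnt9b*, *Dkk1*, *Dkk4*, *Wif1*, *Rspo2* and *Rspo4*, of which the highest value was 2.04 CPM, for *Rspo4* in 1 EO771 tumor. *Dkk1*, the best known Wnt inhibitor, was listed at 0 in 14 of the 15 tumors.

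Each model was then compared with the mean of the other 4, and a gene was counted when its log2 fold change was at least 1 in size and its adjusted p below 0.05. These contrasts share tumors and are given side by side, and the shares of all genes given here are also the background of the counts by role that follow. In Pan02 tumors 31 of the 42 genes, 73.8%, were higher and 0 lower, where 18.8% of all genes tested were higher and 7.93% lower. In B16 tumors the balance was the other way, with 7 genes (16.7%) higher and 20 (47.6%) lower, beside 13.1% and 19.6% of all genes. EO771 tumors had 10 genes (23.8%) higher and 15 (35.7%) lower, beside 9.71% and 13.7%. *Wnt7a*, which would not pass the filter without EO771, is among these 10. *Wnt16*, *Fzd10* and *Rspo1*, which would not pass without Pan02, are among the 31 of Pan02. These genes were selected in part for their difference and also enter the counts by role. LL2 tumors had 2 genes (4.76%) higher and 17 (40.5%) lower, beside 8.51% and 8.29%. MC38 tumors had 5 genes (11.9%) higher and 13 (31.0%) lower, beside 11.2% and 8.24%. Scaling counts by their total alone gave 7 higher and 11 lower in MC38. Shares of all genes were not taken in that fit, so these numbers have no background. That scaling moved the median of all genes by 0.14 on the log2 scale in MC38 and 0.11 in Pan02. The median log2 fold change of the tested Wnt genes was 2.87 in Pan02, −1.54 in B16, −0.57 in EO771, −0.68 in LL2 and −0.19 in MC38, while that of all genes lay between −0.04 and 0.05 in every model. Without MC38 tumor 1, which stood apart in *Wnt7b*, MC38 had 4 genes higher and 12 lower of 44 tested (10.8% and 8.12% of all genes), and the adjusted p of *Wnt5a* (0.054), *Wnt16* (0.15), *Sfrp1* (0.074) and *Rspo3* (0.062) passed the threshold no more. Without Pan02 tumor 1, which stood apart in *Fzd6* and *Sfrp4*, Pan02 had 31 higher and 3 lower of 43 tested (19.0% and 9.39% of all genes). Since these are bulk samples, fewer cells of a type and less RNA per cell cannot be told apart.

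Among the ligands, 13 of 18 were tested and 13 differed. Pan02 tumors had 11 of them higher and 0 lower, EO771 tumors 8 higher and 2 lower, and B16 tumors 0 higher and 9 lower. Ligands with a mean of at least 1 CPM numbered 12 in Pan02, 10 in EO771, 10 in MC38, 9 in LL2 and 1 in B16, where it was *Wnt5b*. Summed over all 18 ligands per length, tumors held 235 ± 51.2 RPKM in Pan02, 201 ± 12.2 RPKM in EO771, 60.7 ± 5.34 RPKM in LL2, 18.5 ± 4.38 RPKM in MC38 and 3.47 ± 0.646 RPKM in B16 (SD, n = 3). The ligand that led the sum was *Wnt7b* in EO771 (73.0% of it) and LL2 (79.7%), *Wnt10a* in Pan02 (35.8%) and MC38 (29.0%) and *Wnt5b* in B16 (31.3%). The plot of ligands by tumor shows these differences for each gene.

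**Figure D1:**
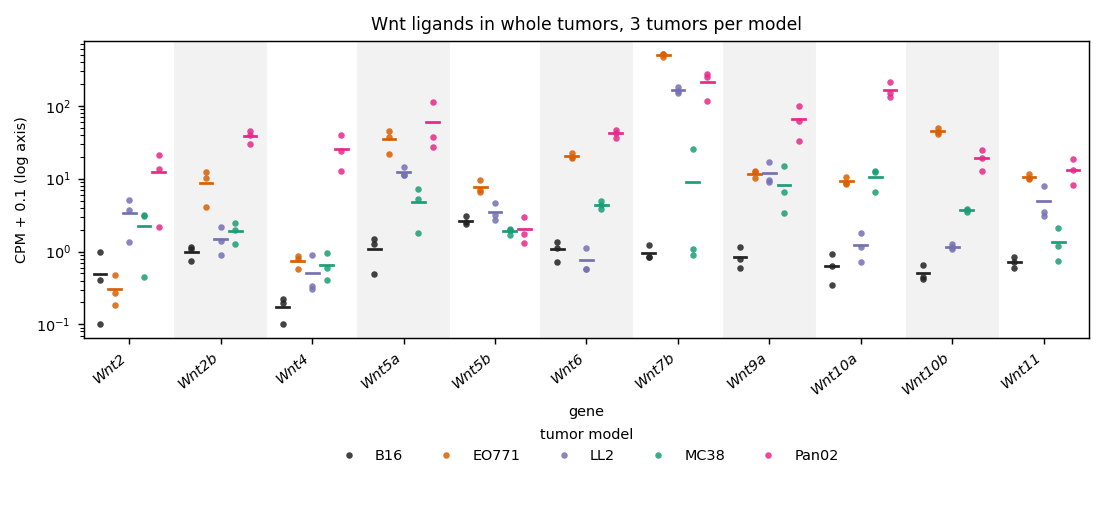
CPM + 0.1 on a log axis (y) of 11 ligands (x), with 1 point per tumor, a bar at the mean and 1 color per model. Pan02 (pink) is highest for 8 of the 11 genes, EO771 (orange) for *Wnt5b*, *Wnt7b* and *Wnt10b*, and the B16 tumors (black) sit near or below 1 CPM for every gene but *Wnt5b*.

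*Wnt7b*, a ligand of the β-catenin branch known from lung and other epithelia, was the most abundant ligand in EO771 and LL2 tumors. It read 461, 509 and 511 CPM in EO771 tumors, 275, 245 and 117 CPM in Pan02, 152, 179 and 158 CPM in LL2, 25.2, 0.968 and 0.787 CPM in MC38 and 0.737, 1.12 and 0.748 CPM in B16. EO771 lay above all other tumors, with a log2 fold change of 4.42 (SE 0.55, adjusted p = 1.6e-05), while the LL2 and Pan02 tumors overlapped. MC38 tumor 1 stood apart from the other 2 MC38 tumors, and its *Krt8*, a keratin gene, was 54.8 CPM, beside 4.17 and 2.84 CPM in the others (*Krt18* was 1.35, 1.54 and 2.05 CPM) and 1197 to 1260 CPM in EO771 tumors. Without that tumor the log2 fold change of *Wnt7b* in MC38 went from −2.76 to −6.08. The part of *Krt8*-bearing cells in this value was not tested.

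*Wnt10a* and *Wnt6* are neighbors on chromosome 1, at chr1:74791516-74804179 and chr1:74771892-74785322 of mm10. *Wnt10a* was 131, 215 and 149 CPM in Pan02 tumors and at most 12.7 CPM in any other tumor, a log2 fold change of 5.88 (SE 0.22, adjusted p = 3.4e-10). *Wnt6* was also highest in Pan02, at 46.8, 42.7 and 36.1 CPM, with EO771 next at 19.7, 22.6 and 19.3 CPM and all other tumors at or below 4.77 CPM. Both genes were thus highest in Pan02, but *Wnt10a* was about level in EO771 (9.20 ± 1.15 CPM) and MC38 (10.5 ± 3.52 CPM) where *Wnt6* was not.

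*Wnt10b*, a ligand known for holding back fat cell formation, had its peak in EO771, with 40.6, 49.9 and 43.9 CPM and a log2 fold change of 4.23 (SE 0.15, adjusted p = 3.8e-10). Pan02 tumors followed with 24.6, 19.4 and 12.7 CPM, and B16, LL2 and MC38 tumors stayed at or below 3.75 CPM. *Wnt1*, which lies beside it on chromosome 15, did not exceed 0.855 CPM in any tumor.

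*Wnt5a*, the main ligand of the branch without β-catenin, was 113, 27.5 and 37.2 CPM in Pan02 tumors and 22.0, 37.2 and 45.3 CPM in EO771 tumors. These 2 models overlapped, and both lay above LL2 (11.1 to 14.5 CPM), MC38 (1.69 to 7.05 CPM) and B16 (0.393 to 1.40 CPM). Pan02 tumor 1 held the high value, and without it the log2 fold change of Pan02 moved from 3.13 to 2.24 (adjusted p = 8.3e-05). Its relative *Wnt5b* was highest in EO771, at 9.48, 6.45 and 6.88 CPM, against 1.21 to 4.49 CPM elsewhere. *Wnt11* was 13.2, 18.3 and 8.16 CPM in Pan02 and 11.6, 9.89 and 9.98 CPM in EO771, which overlapped, and 0.491 to 7.95 CPM in the other tumors.

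A further 4 ligands had their highest mean in Pan02. *Wnt2b* was 45.4, 39.5 and 30.3 CPM there and at most 12.1 CPM elsewhere (log2 fold change 4.16, SE 0.26, adjusted p = 3e-08). *Wnt9a* was 33.3, 100 and 61.8 CPM, while no tumor of another model exceeded 17.1 CPM. *Wnt4*, a ligand of gonad and kidney development, was 39.1, 24.1 and 12.5 CPM and at most 0.856 CPM in any other tumor, with a log2 fold change of 6.19 (SE 0.36, adjusted p = 1.6e-08). *Wnt2* was 2.08, 21.1 and 13.5 CPM, so that 1 Pan02 tumor lay within the range of LL2 (1.25 to 4.95 CPM) and MC38 (0.348 to 3.08 CPM). The tested ligands *Wnt7a* and *Wnt16* did not exceed 2.25 and 3.07 CPM in any tumor and were highest in EO771 and Pan02, respectively.

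Among the receptors, 12 of 12 were tested and 11 differed, which is 91.7% beside the 91.1% of all genes. Pan02 tumors had 8 higher and 0 lower, B16 tumors 4 higher and 3 lower, and EO771 and LL2 tumors each had 0 higher and 5 lower. Receptor RNA summed to 250 ± 115 RPKM in Pan02 and to between 76.9 and 119 RPKM on average in the other models (SD, n = 3).

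*Fzd1* was 596, 387 and 196 CPM in Pan02 tumors and no higher than 45.1 CPM in the other 12, a log2 fold change of 3.81 (SE 0.28, adjusted p = 1.1e-07). *Fzd2* followed it with 269, 141 and 105 CPM in Pan02, 38.9, 48.0 and 48.1 CPM in MC38 and 12.3 to 22.6 CPM in the other models. Both groups of Pan02 values lay above every other tumor. *Fzd7*, a receptor tied to stem cells and to several carcinomas, was shared by 2 models, with 162, 142 and 155 CPM in B16 and 146, 135 and 151 CPM in Pan02. MC38 tumors held 55.9, 62.1 and 59.7 CPM of it, LL2 tumors 13.1 to 26.1 CPM and EO771 tumors 4.87 to 6.88 CPM. The order of *Fzd7* was thus B16 with Pan02, then MC38, LL2 and EO771, with no overlap between these steps.

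*Fzd6*, a receptor of planar cell polarity, was 113, 35.5 and 28.5 CPM in Pan02, 33.4, 29.3 and 32.2 CPM in B16, 20.3 to 25.6 CPM in LL2 and at most 4.47 CPM in EO771 and MC38. Pan02 and B16 overlapped, and without Pan02 tumor 1 the log2 fold change of Pan02 fell from 2.72 to 1.81 (adjusted p = 1.6e-05). *Fzd3*, of the same polarity pathway, was 3.98, 3.98 and 2.94 CPM in B16 and 3.22, 4.52 and 2.43 CPM in Pan02, with no value above 0.392 CPM in the rest. The values of B16 and Pan02 thus overlapped in *Fzd3*, *Fzd6* and *Fzd7*.

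*Fzd9* was high in a different pair, with 8.40, 10.5 and 13.4 CPM in B16 and 4.77, 11.3 and 9.38 CPM in MC38, and 0.053 to 0.174 CPM in EO771. *Fzd8* was 16.8, 21.7 and 12.2 CPM in Pan02 and at most 6.22 CPM elsewhere. *Fzd10* was 0.611, 4.01 and 5.19 CPM in Pan02, with 0.602 CPM as the highest value elsewhere. *Fzd4* and *Fzd5* varied less, by 2.79 and 3.54 times between the highest and lowest model mean, as did the co-receptor *Lrp6*, by 3 times.

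Of the 10 secreted inhibitors, 7 were tested and 7 differed. Pan02 tumors had 6 higher and 0 lower, B16 1 higher and 4 lower, EO771 0 higher and 5 lower, LL2 1 higher and 2 lower, and MC38 1 higher and 3 lower. Per length, *Sfrp2* led the inhibitors in EO771 (51.6%), MC38 (55.0%) and Pan02 (49.7%), *Dkk3* in B16 and *Dkk2* in LL2. The plot of receptors and inhibitors shows that *Dkk2*, *Dkk3* and *Notum* each stood out in 1 or 2 models.

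**Figure D2:**
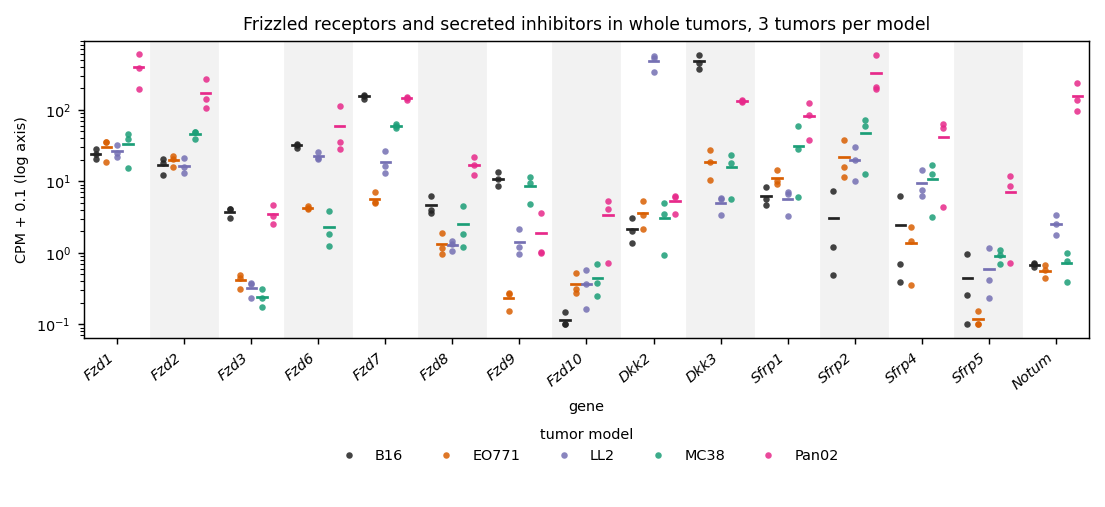
CPM + 0.1 on a log axis (y) of 8 *Fzd* receptors and 7 secreted inhibitors (x), with 1 point per tumor, a bar at the mean and 1 color per model. *Fzd1*, *Fzd2*, *Fzd8*, *Sfrp2* and *Notum* are highest in Pan02 (pink), *Dkk2* in LL2 (purple, 333 to 568 CPM) and *Dkk3* in B16 (black, 373 to 589 CPM).

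*Dkk2*, a secreted protein that binds the Lrp5 and Lrp6 co-receptors, was 523, 333 and 568 CPM in LL2 tumors and between 0.819 and 6.03 CPM in the other 12, a log2 fold change of 7.20 (SE 0.30, adjusted p = 2.1e-09). It alone made up 86.6% of the inhibitor RNA per length in LL2. *Dkk3*, a relative that is not a classical Wnt antagonist, was 454, 589 and 373 CPM in B16 and 132, 138 and 130 CPM in Pan02, against 3.26 to 27.4 CPM in the other models. Its share of the inhibitor RNA in B16 was 96.4%, with a log2 fold change of 4.50 (SE 0.28, adjusted p = 1.1e-08).

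*Notum*, an enzyme that inactivates Wnt ligands by removing their lipid and is itself a target of the pathway, was 138, 240 and 95.3 CPM in Pan02 tumors and at most 3.30 CPM in any other tumor. Its log2 fold change of 7.58 (SE 0.24, adjusted p = 1e-10) was the largest among the 52 genes. The annotation shares 38.1% of the exon bases of *Notum* with *Notumos* and *Myadml2os*, and counts were made on both strands, so its reads cannot be told apart from theirs. The same holds in smaller part for *Fzd5* (17.8%), *Sfrp2* (16.1%), *Ctnnb1* (15.1%), *Lef1* (13.7%) and *Rspo3* (13.1%).

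The Sfrp genes, which encode decoys that resemble the binding part of Frizzled, were all highest in Pan02 tumors. *Sfrp2* was 195, 584 and 205 CPM there, 58.6, 12.5 and 72.2 CPM in MC38, 9.83 to 37.2 CPM in EO771 and LL2 and 0.393 to 7.28 CPM in B16, with a log2 fold change of 4.36 (SE 0.52, adjusted p = 9.2e-06). *Sfrp1* was 126, 84.5 and 37.9 CPM in Pan02, and 1 of the 3 MC38 tumors (59.1 CPM) lay within that range. *Sfrp4* was 4.23, 62.4 and 56.2 CPM in Pan02, *Sfrp5* 0.611, 11.9 and 8.52 CPM, and for both genes Pan02 tumor 1 lay inside the range of the other models. Fibroblast gene sums were 8166 RPKM or more in each Pan02 tumor, tumor 1 included, and at most 2672 RPKM in the others. Muscle gene sums varied between tumors of a model, from 24.7 to 554 RPKM in Pan02, 242 to 1925 RPKM in MC38 and 3.48 to 698 RPKM in LL2. In EO771 and B16 they were at most 10.8 RPKM. The part of fibroblasts or muscle in the result was not tested.

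The R-spondin axis had 5 of 7 genes tested and 5 that differed, of which Pan02 had 4 higher and 0 lower. *Lgr5*, a receptor for R-spondins and a stem cell marker of the gut, was 59.0, 59.2 and 24.9 CPM in Pan02 and 0.124 to 1.30 CPM in all other tumors, a log2 fold change of 6.40 (SE 0.30, adjusted p = 2.2e-09). *Rnf43*, the ligase that removes Frizzled from the surface, was 13.0, 10.7 and 7.32 CPM in Pan02, 2.01, 4.46 and 4.88 CPM in EO771 and at most 1.99 CPM elsewhere. The second ligase, *Znrf3*, varied by 1.93 times between model means and was 13.3 to 37.7 CPM in the 15 tumors. The R-spondins themselves were low. *Rspo3* was 6.38, 1.35 and 2.55 CPM in Pan02 and 1.54, 1.29 and 2.36 CPM in MC38, which overlapped, and no tumor exceeded 1.69 CPM of *Rspo1*.

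The last group holds β-catenin, the nuclear factors *Lef1* and *Tcf7*, and the feedback inhibitors *Axin2* and *Nkd1*, which are switched on by the pathway they restrain. All 5 differed among the models. *Ctnnb1* was 1937, 1957 and 1716 CPM in B16 tumors, 873, 753 and 693 CPM in Pan02, 779, 567 and 620 CPM in LL2, 603, 575 and 615 CPM in EO771 and 426, 384 and 377 CPM in MC38. B16 lay above all other tumors (log2 fold change 1.67, SE 0.09, adjusted p = 3.4e-09) and MC38 below all others (−1.13, SE 0.11, adjusted p = 2.4e-06). *Axin2*, the most widely used readout of β-catenin signaling, was 37.3, 49.8 and 36.2 CPM in B16, 16.8, 16.7 and 19.6 CPM in Pan02, 3.68, 5.77 and 6.58 CPM in EO771, 4.42, 1.41 and 1.63 CPM in LL2 and 2.12, 2.21 and 2.29 CPM in MC38. B16 and Pan02 each lay above all 9 tumors of the other 3 models, with log2 fold changes of 3.11 (SE 0.22, adjusted p = 5e-08) and 1.59 (SE 0.24, adjusted p = 6.6e-05).

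*Nkd1* did not follow *Axin2* in B16. It was 0.0491, 0.218 and 0.175 CPM there and 17.0, 20.3 and 13.5 CPM in Pan02, with 0.235 to 5.62 CPM in the remaining models. B16 tumors therefore combined the highest *Axin2* with the lowest *Nkd1* and with *Notum*, *Lgr5* and *Rnf43* at or below 1.30 CPM, while Pan02 tumors were highest in these 4 genes and second in *Axin2*. The plot of R-spondin and target genes shows this split.

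**Figure D3:**
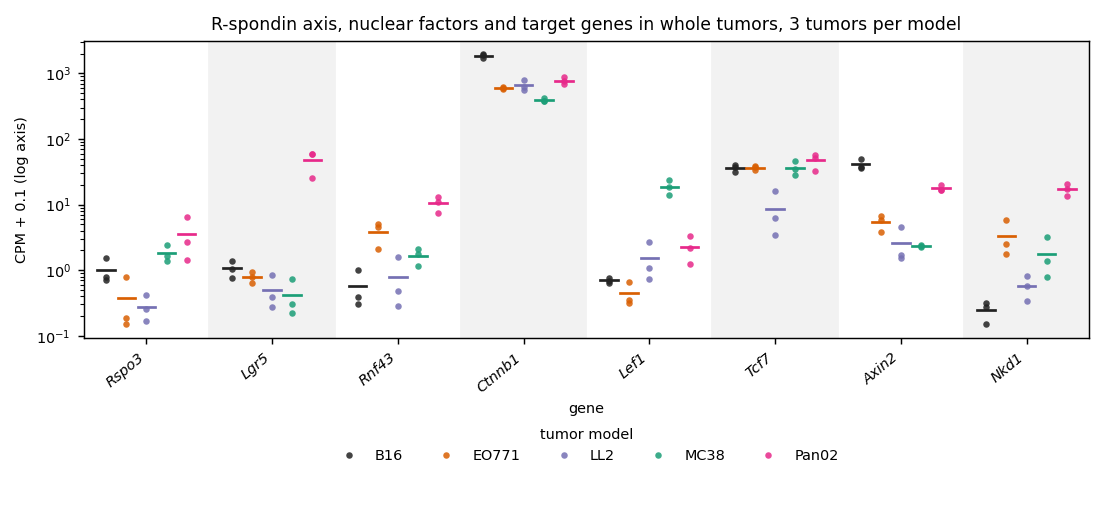
CPM + 0.1 on a log axis (y) of 3 genes of the R-spondin axis and 5 of β-catenin, nuclear factors and targets (x), with 1 point per tumor, a bar at the mean and 1 color per model. *Axin2* is highest in B16 (black, 36.2 to 49.8 CPM) and next in Pan02 (pink, 16.7 to 19.6 CPM), while *Nkd1* is highest in Pan02 (13.5 to 20.3 CPM) and at most 0.218 CPM in B16.

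*Lef1*, a nuclear partner of β-catenin that T cells also use, was 14, 23.4 and 18.3 CPM in MC38 tumors and at most 3.20 CPM in any other tumor (log2 fold change 4.35, SE 0.32, adjusted p = 2.6e-07). T cell gene sums in the tumors averaged 51.7 RPKM in Pan02, 38.2 RPKM in MC38, 30.3 RPKM in B16, 21.8 RPKM in LL2 and 17.1 RPKM in EO771. Single tumors had 35.1 to 40.5 RPKM in MC38 and 6.34 to 90.5 RPKM in the other models. The part of T cells in the *Lef1* values of the tumors was not tested. *Tcf7*, which shares this role, was lowest in LL2, at 6.08, 3.36 and 15.9 CPM, and 28.0 to 57.8 CPM in the other tumors, a log2 fold change of −2.20 (SE 0.37, adjusted p = 0.00035).

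To place sequence beside these values, the 250 bases upstream of the transcript start were read from RefSeq promoters (GRCm38.p6, the same coordinates as mm10) for the 33 Wnt genes with an entry at the counted transcript. A single form of the TCF/LEF motif core was searched, CTTTGA on either strand (TCAAAG when read on the other). Other forms of the motif were not searched. This form was found in 3 of the 33, or 9.09%, and in 13.8% of all 32851 promoters. The genes with a match were *Fzd1*, *Wnt11* and *Dkk1*, of which *Fzd1* and *Wnt11* were measured at levels that could be tested. The upstream sequences below are shown for these 2 genes, for *Axin2* as the classical target gene and for *Dkk2*, whose high values lay in LL2 alone, 5′ to 3′ on the strand of the gene, with motif matches in capitals.
Fzd1 (chr5:4758217-4758466, minus strand): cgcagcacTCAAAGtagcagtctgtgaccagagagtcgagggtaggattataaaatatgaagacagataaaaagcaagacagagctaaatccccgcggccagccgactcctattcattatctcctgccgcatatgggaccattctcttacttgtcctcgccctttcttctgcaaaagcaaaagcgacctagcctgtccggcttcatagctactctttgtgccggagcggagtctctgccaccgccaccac
Wnt11 (chr7:98834862-98835111, plus strand): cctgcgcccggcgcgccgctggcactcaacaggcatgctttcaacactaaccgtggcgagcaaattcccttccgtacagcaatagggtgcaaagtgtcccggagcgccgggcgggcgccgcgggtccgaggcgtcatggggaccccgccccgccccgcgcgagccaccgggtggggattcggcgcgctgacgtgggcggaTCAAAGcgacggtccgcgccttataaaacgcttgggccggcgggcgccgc
Axin2 (chr11:108920099-108920348, plus strand): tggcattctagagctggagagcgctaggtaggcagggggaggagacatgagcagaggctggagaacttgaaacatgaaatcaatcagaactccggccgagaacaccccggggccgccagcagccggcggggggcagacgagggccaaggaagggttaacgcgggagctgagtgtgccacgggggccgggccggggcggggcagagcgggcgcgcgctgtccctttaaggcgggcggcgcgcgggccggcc
Dkk2 (chr3:132085042-132085291, plus strand): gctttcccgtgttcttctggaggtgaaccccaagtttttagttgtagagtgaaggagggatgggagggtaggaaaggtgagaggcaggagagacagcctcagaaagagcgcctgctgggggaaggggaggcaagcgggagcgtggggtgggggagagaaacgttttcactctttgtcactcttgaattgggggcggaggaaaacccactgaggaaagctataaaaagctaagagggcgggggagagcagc
The match began 242 bases upstream of the *Fzd1* start and 50 bases upstream of the *Wnt11* start. These letters were not found in the windows of *Axin2* and *Dkk2*. A match is a description of the window, and its absence says only that these letters are not in it.

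The next question was whether sorted FAP+ CAFs of the 4 models differ in the Wnt genes as well. Of the 52 genes, 37 reached 1 RPKM in 2 or more of the 8 CAF libraries and were tested on log2(RPKM + 1) with limma, and 33 of them, 89.2%, differed at an adjusted p below 0.05, where 80.4% of all 13598 genes tested did. Of the 37, 6 passed the filter through 1 model alone and so were selected in part for their difference. They were *Wnt4*, *Rspo3* and *Rnf43* in Pan02 and *Fzd9*, *Rspo1* and *Lef1* in MC38. The tested genes that did not differ were *Wnt9a* (adjusted p = 0.091), *Nkd1* (0.091), *Sfrp1* (0.23) and *Sfrp2* (0.24). Against the mean of the other 3 models, Pan02 CAFs had 16 genes (43.2%) higher and 2 (5.41%) lower, beside 9.73% and 8.41% of all genes. EO771 CAFs had 8 (21.6%) higher and 6 (16.2%) lower, beside 8.05% and 7.06%. LL2 CAFs had 1 (2.70%) higher and 8 (21.6%) lower, beside 3.89% and 5.13%. MC38 CAFs had 2 (5.41%) higher and 10 (27.0%) lower, beside 10.9% and 9.87%. When both Pan02 CAF libraries were left out, a choice made after their marker values had been seen, 26 of 34 genes tested (76.5%) differed among the other 3 models, beside 68.4% of all genes in that fit. EO771 then had 11 (32.4%) higher and 2 (5.88%) lower, beside 8.38% and 7.47% of all genes, LL2 3 (8.82%) and 4 (11.8%), beside 4.82% and 6.30%, and MC38 3 (8.82%) and 11 (32.4%), beside 11.7% and 10.2%. Without MC38 CAF library 2, which had 467 RPKM of *Col1a1* beside 2771 RPKM in library 1, MC38 CAFs had 1 gene higher and 9 lower of 34 tested, beside 11.7% and 9.69% of all genes. The gene higher was then *Sfrp2*, while *Fzd9* and *Lef1*, higher with both libraries, no longer passed the filter. Fold changes below are on the log2(RPKM + 1) scale, which understates those of low genes.

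**Figure D4:**
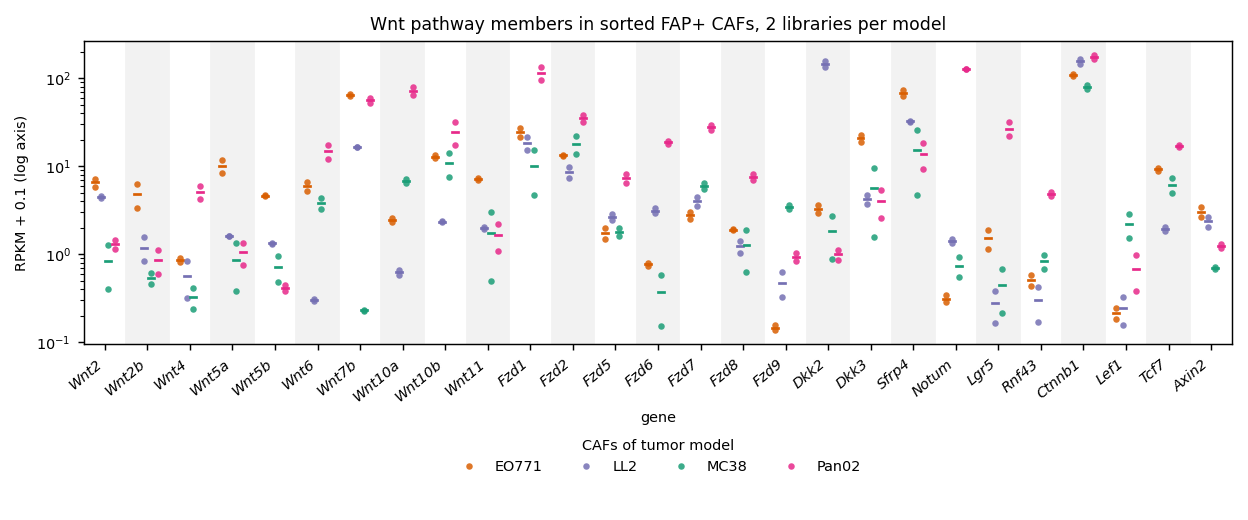
RPKM + 0.1 on a log axis (y) of 27 Wnt genes (x), with 1 point per library, a bar at the mean of 2 and 1 color per model. *Dkk2* stands out in LL2 (purple, 133 and 156 RPKM), *Wnt10a*, *Notum*, *Lgr5* and *Fzd1* in Pan02 (pink) and *Wnt5a* in EO771 (orange), while *Wnt7b* is near 0 in MC38 (green).

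Of the 11 ligands tested in CAFs, EO771 had 6 higher and 1 lower and Pan02 5 higher and 1 lower. Ligand RNA summed to 185 and 194 RPKM in Pan02 CAFs, 129 and 125 RPKM in EO771, 39.2 and 36.1 RPKM in LL2 and 32.4 and 30.1 RPKM in MC38. *Wnt7b* was 62.6 and 66.1 RPKM in EO771, 52.5 and 60.2 RPKM in Pan02, 16.6 and 16.3 RPKM in LL2 and 0.135 and 0.128 RPKM in MC38. EO771 lay above all other CAF libraries (2.65, SE 0.10, adjusted p = 5e-06), and MC38 far below (−5.15, SE 0.10, adjusted p = 3.7e-07). *Krt8* was 492 and 495 RPKM in EO771, 385 and 545 RPKM in Pan02, 84.2 and 90.5 RPKM in LL2 and 0.274 and 0.241 RPKM in MC38. The other epithelial genes did not share the high place of EO771. *Krt18* was 0.729 and 1.40 RPKM there, 349 and 483 RPKM in Pan02, 97.2 and 101 RPKM in LL2 and at most 0.979 RPKM in MC38. In the EO771 tumors, too, the epithelial sum was almost wholly *Krt8*. The part of epithelial cells in the *Wnt7b* values was not tested.

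*Wnt10a* was 65.3 and 79.8 RPKM in Pan02 CAFs and at most 7.15 RPKM in the rest, a difference of 4.43 (SE 0.12, adjusted p = 8.3e-07). *Wnt6* was 12.0 and 17.4 RPKM in Pan02, 5.17 and 6.50 RPKM in EO771, 3.21 and 4.21 RPKM in MC38 and 0.214 and 0.191 RPKM in LL2. *Wnt10b* was 32.2 and 17.2 RPKM in Pan02, 13.2 and 12.3 RPKM in EO771, 7.53 and 14 RPKM in MC38 and 2.27 and 2.23 RPKM in LL2, so that EO771 and MC38 overlapped. *Wnt4* was 5.92 and 4.11 RPKM in Pan02 and at most 0.798 RPKM elsewhere. Epithelial sums were highest in the Pan02 libraries, and their part in these 4 ligands was not tested.

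A second group of ligands was highest in EO771 CAFs. *Wnt5a* was 11.6 and 8.22 RPKM there and 0.286 to 1.54 RPKM in the other 6 libraries (2.41, SE 0.24, adjusted p = 0.00025). *Wnt2*, a ligand often linked to fibroblasts, was 7.15 and 5.80 RPKM in EO771, 4.51 and 4.31 RPKM in LL2 and at most 1.37 RPKM in MC38 and Pan02. *Wnt5b* was 4.67 and 4.45 RPKM in EO771 and at most 1.25 RPKM elsewhere. *Wnt11* (7.20 and 6.98 RPKM) and *Wnt2b* (6.16 and 3.23 RPKM) also peaked in EO771, with at most 2.89 and 1.46 RPKM in the other CAFs. For *Wnt11* the adjusted p of 0.007 went to 0.057 and 0.055 when either EO771 library was left out. EO771 CAFs also held the highest sums of leukocyte genes (84.5 and 103 RPKM) and of fibroblast genes (8980 and 9733 RPKM). Endothelial sums were 46.8 and 47.0 RPKM in EO771, 37.8 and 47.1 RPKM in LL2, 14.4 and 31.3 RPKM in MC38 and 5.84 and 9.97 RPKM in Pan02. The part of these cell types in the values was not tested.

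Of the 10 receptors tested, Pan02 CAFs had 6 higher and 0 lower. *Fzd1* was 137 and 96.6 RPKM in Pan02, 27.1 and 21.8 RPKM in EO771, 21.3 and 15.3 RPKM in LL2 and 15.2 and 4.69 RPKM in MC38 (2.80 in Pan02, SE 0.37, adjusted p = 0.00067). *Fzd6* was 18.0 and 19.4 RPKM in Pan02 and at most 3.25 RPKM elsewhere, and *Fzd7* 26.1 and 29.1 RPKM and at most 6.34 RPKM. *Fzd2* (31.7 and 38.6 RPKM), *Fzd5* (8.17 and 6.33 RPKM) and *Fzd8* (8.19 and 6.94 RPKM) were highest in Pan02 as well. *Fzd9* was 3.50 and 3.20 RPKM in MC38 and at most 0.938 RPKM in the other models, and passed the filter through MC38 alone. *Lrp6* was lowest in MC38, at 3.85 and 3.62 RPKM against 9.22 to 12.8 RPKM elsewhere.

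Among the inhibitors, *Dkk2* was 133 and 156 RPKM in LL2 CAFs and at most 3.52 RPKM in any other CAF library, a difference of 5.74 (SE 0.25, adjusted p = 3.1e-05). *Notum* was 128 and 126 RPKM in Pan02 CAFs and at most 1.41 RPKM elsewhere (6.27, SE 0.12, adjusted p = 5.1e-07). Both genes were thus highest in the libraries labelled CAF of the model whose tumors were highest. For *Notum*, as for the *Fzd* genes that were highest in Pan02 and for *Lgr5* and *Rnf43* below, these are the Pan02 libraries with the lowest *Fap* (3.28 and 1.89 RPKM) and the highest epithelial sums (886 and 1172 RPKM), whose part in the result was not tested. *Dkk3* was 22.6 and 19.0 RPKM in EO771 and 1.49 to 9.55 RPKM in the other libraries (2.12, SE 0.49, adjusted p = 0.0095). *Sfrp4* was 63.5 and 72.8 RPKM in EO771, 31.8 and 32.8 RPKM in LL2, 25.6 and 4.66 RPKM in MC38 and 18.5 and 9.14 RPKM in Pan02 (1.95, SE 0.52, adjusted p = 0.017). Leaving out either EO771 library took *Dkk3* to an adjusted p of 0.076 and 0.057 and *Sfrp4* to 0.084 and 0.11. *Sfrp2*, the most abundant Sfrp gene in the CAFs, was 88.2 and 88.1 RPKM in EO771, 42.6 and 37.5 RPKM in LL2, 117 and 25.0 RPKM in MC38 and 49.5 and 18.4 RPKM in Pan02. The MC38 libraries differed from each other more than the models did in *Sfrp2*. Without MC38 library 2 the difference of MC38 in *Sfrp2* went from 0.19 to 1.28 (adjusted p = 0.031).

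*Lgr5* was 21.8 and 31.8 RPKM in Pan02 CAFs, 1.80 and 1.05 RPKM in EO771 and at most 0.581 RPKM in LL2 and MC38 (4.14 in Pan02, SE 0.22, adjusted p = 8.6e-06). *Rnf43* was 4.51 and 5.05 RPKM in Pan02 and at most 0.891 RPKM elsewhere. *Rspo3* stayed at or below 2.25 RPKM and *Rspo1* at or below 1.16 RPKM, with their highest values in Pan02 and MC38.

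*Ctnnb1* was 165 and 187 RPKM in Pan02 CAFs, 146 and 165 RPKM in LL2, 107 and 113 RPKM in EO771 and 83.3 and 76.0 RPKM in MC38. *Axin2* did not follow this order. It was 3.33 and 2.55 RPKM in EO771, 2.57 and 1.97 RPKM in LL2, 1.08 and 1.22 RPKM in Pan02 and 0.615 and 0.572 RPKM in MC38, with overlap between EO771 and LL2 and differences of 0.81 in EO771 (SE 0.13, adjusted p = 0.0021) and −0.92 in MC38 (SE 0.13, adjusted p = 0.00081). *Tcf7* was 16.6 and 17.4 RPKM in Pan02, 9.53 and 8.75 RPKM in EO771, 4.85 and 7.18 RPKM in MC38 and 1.93 and 1.73 RPKM in LL2, the model whose tumors were also lowest. *Lef1* was 1.42 and 2.80 RPKM in MC38 and at most 0.878 RPKM elsewhere. T cell genes in MC38 CAFs summed to 1.37 and 1.42 RPKM, and 3 of the 9 T cell genes were at 0 in both libraries. These libraries had the fewest reads of the CAFs. The mean T cell sum was highest in MC38 (1.39 RPKM), beside 1.07 RPKM in LL2, 0.926 RPKM in EO771 and 0.536 RPKM in Pan02. The highest sum of a single library, 1.85 RPKM, was in LL2. The part of T cells in the *Lef1* values was not tested.

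Levels per length in tumors and CAFs of the same model were then set side by side, without a test because the tables were normalized separately, as in the plot of tumor against CAF means.

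**Figure D5:**
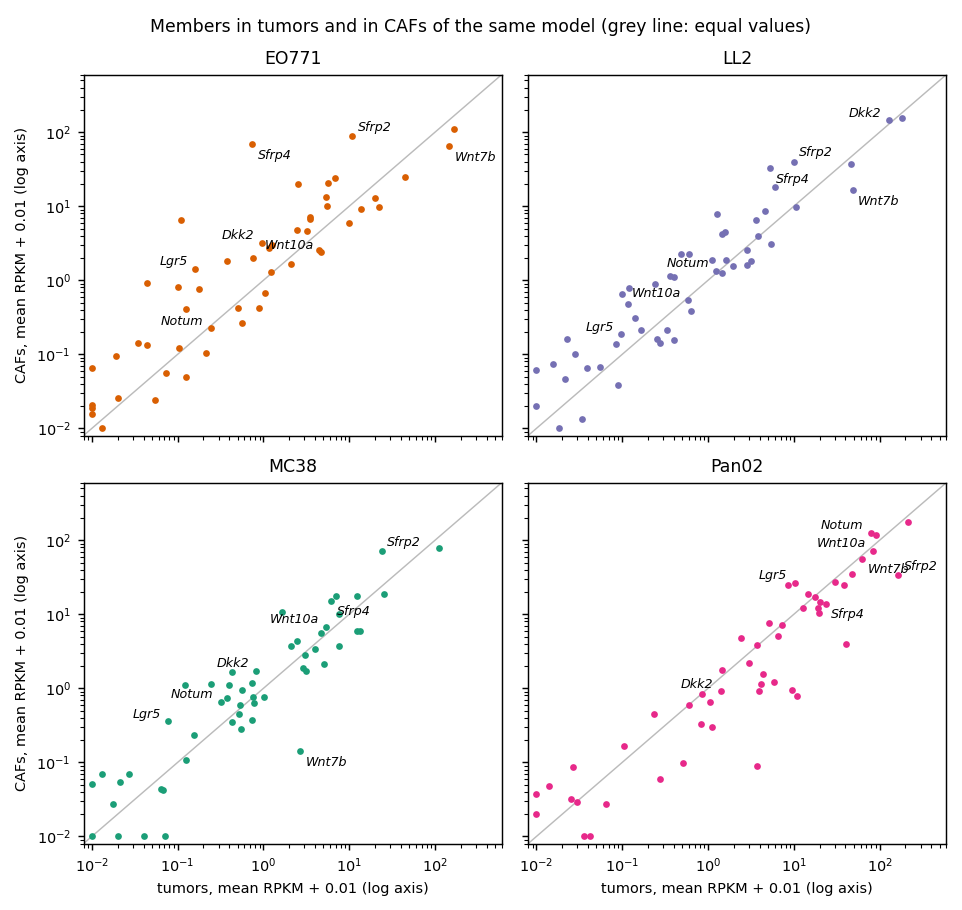
Mean RPKM + 0.01 of the 52 Wnt genes in tumors (x) and in CAFs (y) of the same model, both on log axes, with 1 panel per model, 1 point per gene and a grey line at equal values. *Dkk2* in LL2, and *Notum* and *Wnt10a* in Pan02, lie near the line at high values, while *Sfrp4* lies far above it in EO771.

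*Dkk2* was 128 RPKM on average in LL2 tumors and 145 RPKM in LL2 CAFs. *Notum* was 78.7 and 127 RPKM in Pan02 tumors and CAFs, *Wnt10a* 84.2 and 72.5 RPKM, and *Fzd1* 89.9 and 117 RPKM. *Wnt7b* was 64.4 RPKM in EO771 CAFs beside 147 RPKM in EO771 tumors, 16.4 beside 48.4 RPKM in LL2, 0.132 beside 2.67 RPKM in MC38 and 56.4 beside 63.1 RPKM in Pan02. *Sfrp4* went the other way in EO771, with 68.2 RPKM in CAFs beside 0.729 RPKM in tumors, and *Sfrp2* with 88.1 beside 10.8 RPKM. Epithelial sums in these CAF libraries averaged 498 RPKM in EO771, 210 RPKM in LL2 and 1029 RPKM in Pan02, beside 689, 387 and 1751 RPKM in the tumors, and the EO771 sums were almost wholly *Krt8* (493 RPKM in CAFs and 685 RPKM in tumors). Fibroblast sums averaged 9356 RPKM in CAFs beside 1099 RPKM in tumors of EO771, 7632 beside 1860 RPKM in LL2, 4040 beside 1825 RPKM in MC38 and 3133 beside 8533 RPKM in Pan02. The part of either cell type in these values was not tested.

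The other genes of the pathway were taken from a list of 71 that does not overlap the 52. In tumors 65 were tested and 60 differed, 92.3% beside the 91.1% of all genes. The shares of all genes higher and lower stand in parentheses after the counts of each model. Pan02 had 23 higher and 4 lower (18.8% and 7.93%), B16 10 and 20 (13.1% and 19.6%) and EO771 8 and 11 (9.71% and 13.7%). LL2 had 13 and 11 (8.51% and 8.29%) and MC38 4 and 13 (11.2% and 8.24%). In CAFs 60 were tested and 52 differed, 86.7% beside 80.4%. Pan02 had 14 higher and 3 lower (9.73% and 8.41%) and EO771 5 and 3 (8.05% and 7.06%). LL2 had 8 and 5 (3.89% and 5.13%) and MC38 3 and 16 (10.9% and 9.87%). The 3 genes with the largest fold change either way were *Apcdd1*, *Celsr1* and *Ptk7* in tumors and *Tcf7l1*, *Celsr1* and *Apcdd1* in CAFs. *Apcdd1*, an inhibitor at the cell membrane, was 565, 375 and 566 CPM in LL2 tumors and at most 109 CPM elsewhere, and its fold change was largest in B16 (−5.60, SE 0.36, adjusted p = 1.5e-08), where it was 1.18 to 1.77 CPM. In LL2 CAFs it was 113 and 114 RPKM and at most 34.1 RPKM in the others, so that, like *Dkk2*, it was highest in LL2 in both sets. *Celsr1*, a cadherin of planar cell polarity, was 145, 151 and 83.5 CPM in Pan02 tumors and at most 9.67 CPM elsewhere, and 8.30 and 8.57 RPKM in Pan02 CAFs and at most 0.376 RPKM elsewhere. *Ptk7*, a co-receptor, was 2.95 to 6.59 CPM in B16 tumors and 118 to 540 CPM in the rest. *Tcf7l1*, a TCF factor that mostly represses, was lowest in Pan02 in both sets, at 7.08 to 18.6 CPM in tumors and 1.83 and 0.880 RPKM in CAFs. *Tcf7l2* was highest in Pan02 in both, with a log2 fold change of 0.85 in tumors (SE 0.17, adjusted p = 0.00061) and 19.7 and 14.8 RPKM in CAFs beside at most 6.24 RPKM.

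*Frzb*, a relative of the Sfrp genes, was 17.5, 22.7 and 19.0 CPM in B16 tumors and at most 3.30 CPM elsewhere, and among CAFs reached 2.63 RPKM in LL2. *Wls*, the carrier that every Wnt ligand needs to leave the cell, varied less. It was 81.2 to 332 CPM over the 15 tumors and was 165 to 200 CPM in B16, the model with the lowest sum of ligands. *Sp5*, a target gene of the pathway in embryos, was too low to be tested in either set.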

How the data were processed

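RNA was sequenced from 15 whole tumors and 8 sorted CAF libraries. For the tumors the authors deposited estimated counts per RefSeq transcript, in steps of 0.5 and not normalized, from unstranded libraries aligned to mm10 with STAR 2.5.0c and counted over exons on both strands with HOMER. For the CAFs the authors deposited RPKM values with 3 decimals, and 5 columns that belong to no sample given here were not used. The depth of each CAF library was taken as the one at which most of its RPKM values became whole steps of 0.5 reads. Only low values of long transcripts were used. At that depth 100% of them were whole steps, where at most 17.6% would be at a depth fixed beforehand. This share was what the search maximized, so it is not a separate check of the depth.

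The transcript with the largest mean stood for each symbol, chosen separately in each table, so that *Wnt5a*, *Wnt5b*, *Fzd5*, *Rspo2*, *Znrf3*, *Ctnnb1* and *Lef1* rest on different transcripts in tumors and CAFs. Tumor counts were rounded up and tested with edgeR 4.0.16 in R 4.3.3 (filterByExpr, TMM, quasi-likelihood F test), and CAF values as log2(RPKM + 1) with limma 3.58.1 (trend), for genes at 1 RPKM or more in at least 2 libraries. Both tests were run over all genes, with Benjamini-Hochberg adjustment, and were first tested on simulated data. DESeq2 1.42.0, other scalings, filters and pseudocounts, and leaving out each library were tried as alternatives. Tumor RPKM were computed from the counts, TMM library sizes and transcript lengths. Values per library are given for genes that differed, reached a model mean of 2 CPM or RPKM and were at least 4 times the lowest model mean, and always for *Ctnnb1* and *Axin2*. Genes and lists were chosen with earlier results of these data known. Floors of 3 counts cover counting error only.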

Additional observations from a re-analysis of the deposited data

Results flagged for a closer look

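*Sfrp4*, a secreted decoy for Wnt ligands, stood out in EO771 because its tumors and its CAFs lay at opposite ends. The EO771 tumors averaged 1.28 CPM, with each tumor below the 3.03 to 62.4 CPM of the LL2, MC38 and Pan02 tumors, while EO771 CAFs averaged 68.2 RPKM, with both libraries above the 4.66 to 32.8 RPKM of the other CAFs. Fibroblast gene sums averaged 1099 RPKM in EO771 tumors and 9356 RPKM in EO771 CAFs, and their part in this pattern was not tested. The difference between the sets was not tested, since the tables were normalized separately.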

How the results depend on the processing

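Of 69 alternatives of the counts of Wnt genes, other than leaving out a library, 66 stayed within 1.5 times. The exceptions used the adjusted p alone, without a fold change, and gave 24 genes in EO771 CAFs, 18 in LL2 CAFs and 21 in MC38 CAFs, instead of 14, 9 and 12, since a criterion was dropped. When each library was left out in turn, the genes that differed numbered 41 to 43 in tumors and 27 to 33 in CAFs. The genes higher or lower then numbered 25 to 30 in B16, 20 to 27 in EO771, 15 to 21 in LL2, 16 to 19 in MC38 and 30 to 34 in Pan02 tumors, and 10 to 14 in EO771, 7 to 10 in LL2, 10 to 14 in MC38 and 15 to 23 in Pan02 CAFs. With a CAF library left out, the lone library of that model is assumed to vary like the others. Shares of all genes were taken only for the alternative fits that carry them in the results above. The other counts under alternatives have no such background. They show how far the counts moved and do not set the Wnt genes apart. Named results were followed only in the model with the highest mean, and fits in which a gene failed the filter were not counted. Losses in other models, such as that of *Wnt5a* in MC38 tumors, are therefore not among the values that follow. Of 1041 values of 61 named results under alternatives, 1033 kept their direction and side of the threshold, 8 passed it no more and 0 reversed. The 8 were *Wnt11*, *Dkk3* and *Sfrp4* in EO771 CAFs without either EO771 library, and *Tcf7* in Pan02 tumors without tumor 1 (log2 fold change 0.70, adjusted p = 0.093) or tumor 2 (0.83, adjusted p = 0.062).

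With the replicate number of the tumors as a block, 41 genes differed, and 27, 23, 19, 17 and 31 were higher or lower in B16, EO771, LL2, MC38 and Pan02. Shares of all genes were not taken in this fit either. The numbers did not pair the tumors: deviations of same-numbered tumors correlated at −0.172 to 0.235 over 30 pairs, with 5 over 0.1, and 3 of 15 tumors correlated best with their own number. No paired analysis was possible for the CAFs because their columns carry no replicate number. Values near the floor of 0.137 to 0.299 CPM, such as *Wnt1* or *Dkk1*, are limited by depth.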
